A study of Rattus norvegicus with 10 samples.

Results

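Dusp1, Dusp5, Dusp6 and Errfi1 encode brakes on growth factor signalling, and their transcripts were followed in cultured rat Sertoli cells during treatment with follicle-stimulating hormone (FSH). All probe sets whose single gene symbol was 1 of these 4 genes were taken, which gave 9 of the 8740 probe sets on each array that are no controls, for 4 of the 4736 genes named there. Dusp1 and Errfi1 had 3 probe sets each, Dusp6 had 2 and Dusp5 had 1. Total RNA of Sertoli cells from 20-day-old rats, kept in vitro, had been hybridised to 10 Affymetrix arrays. Untreated cultures at time 0 formed the control group, and the other groups had FSH for 2, 4, 8 or 24 h. Each of the 5 groups had 2 arrays, called replicate 1 and replicate 2. The labels name no strain, no FSH dose and no medium, and nothing in them ties the replicates to different cultures or animals. The spread that the p-values rest on is therefore that between these arrays, and it may be technical. No untreated culture later than 0 h was analysed here, so hours of FSH and hours in culture cannot be told apart.

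FSH binds a receptor of Sertoli cells that raises cAMP and activates protein kinase A, and the hormone also feeds into the MAP kinase cascade, in which Raf phosphorylates MEK and MEK phosphorylates ERK. Dual-specificity phosphatases such as Dusp1, Dusp5 and Dusp6 remove the activating phosphates from MAP kinases. Dusp1 is a nuclear enzyme that acts on p38, JNK and ERK, Dusp5 is a nuclear enzyme that prefers ERK, and Dusp6 is a cytoplasmic enzyme that prefers ERK. Errfi1, also known as Mig6 or gene 33, binds the kinase domain of the EGF receptor and blocks it. Genes of this kind are often induced by the signals that their products limit. The activity of MAP kinases and of the EGF receptor was not measured here.

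The promoter windows of the 4 genes are shown because cAMP acts on transcription largely through the cAMP response element (CRE), and because serum response factor, which answers MAP kinase signals, binds CArG boxes. Each sequence runs from 250 bases before to 50 bases after the RefSeq start site on build GRCr8, and all 4 lie on the + strand. For Dusp1, Errfi1 and Dusp5 that start site is the first base of the annotated gene. For Dusp6 it lies 102 bases inside the gene, so that 148 bases of its window precede the gene's first base. Capitals mark the full CRE TGACGTCA, its core TGACG on either strand, and CArG boxes.
Dusp1, chr10:17184603-17184902: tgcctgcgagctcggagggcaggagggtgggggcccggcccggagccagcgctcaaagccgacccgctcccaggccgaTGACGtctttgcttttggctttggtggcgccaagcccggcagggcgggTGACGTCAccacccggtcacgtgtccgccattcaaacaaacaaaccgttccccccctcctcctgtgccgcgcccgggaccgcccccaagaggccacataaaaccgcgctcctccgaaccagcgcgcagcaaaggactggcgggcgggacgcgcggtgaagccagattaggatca
Errfi1, chr5:166606591-166606890: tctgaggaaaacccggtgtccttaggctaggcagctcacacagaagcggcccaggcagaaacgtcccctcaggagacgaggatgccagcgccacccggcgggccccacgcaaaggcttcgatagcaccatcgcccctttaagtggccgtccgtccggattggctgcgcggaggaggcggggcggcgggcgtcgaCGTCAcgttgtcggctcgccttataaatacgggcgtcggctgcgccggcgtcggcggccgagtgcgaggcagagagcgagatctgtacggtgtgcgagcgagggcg
Dusp5, chr1:262543524-262543823: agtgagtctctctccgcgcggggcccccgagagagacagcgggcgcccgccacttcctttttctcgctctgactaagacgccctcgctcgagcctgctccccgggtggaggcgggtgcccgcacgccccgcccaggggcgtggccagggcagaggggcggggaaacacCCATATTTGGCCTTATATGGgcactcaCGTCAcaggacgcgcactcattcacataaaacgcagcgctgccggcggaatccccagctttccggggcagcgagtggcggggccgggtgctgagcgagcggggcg
Dusp6, chr7:35979354-35979653: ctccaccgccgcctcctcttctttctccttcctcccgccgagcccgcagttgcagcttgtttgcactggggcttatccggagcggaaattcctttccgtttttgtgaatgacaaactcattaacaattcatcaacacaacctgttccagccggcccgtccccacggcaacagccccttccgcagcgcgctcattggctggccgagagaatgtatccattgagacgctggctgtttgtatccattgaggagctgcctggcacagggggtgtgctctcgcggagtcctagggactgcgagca

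The full CRE was found in the Dusp1 window, 124 bases before the start site, and in none of the other 3. It was found in 1.83% of all 33469 RefSeq windows of this length. The core TGACG, which the full CRE contains on both strands, was found in the windows of Dusp1, Errfi1 and Dusp5 and in 21.2% of all windows. Dusp1 had a further core 172 bases before the start, Errfi1 had 1 at 56 bases and Dusp5 had 1 at 55 bases. The Dusp5 window also held 2 adjoining CArG boxes, at 82 and 72 bases before the start, and 1.64% of all windows held such a box. The AP-1 site TGANTCA, searched on both strands, was found in none of the 4 windows and in 7.33% of all. A TATAA match on either strand was found in the Errfi1 and Dusp5 windows and in 26.2% of all. The GC box core GGGCGG, also searched on both strands, was found in the windows of Dusp1, Errfi1 and Dusp5 and in 33.1% of all. The Dusp5 TATAA match is on the - strand only and lies inside a CArG box. The Dusp6 window, set on the later start, held none of these motifs. A match is a description of the letters and not a measured binding site.

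**Figure D1:**
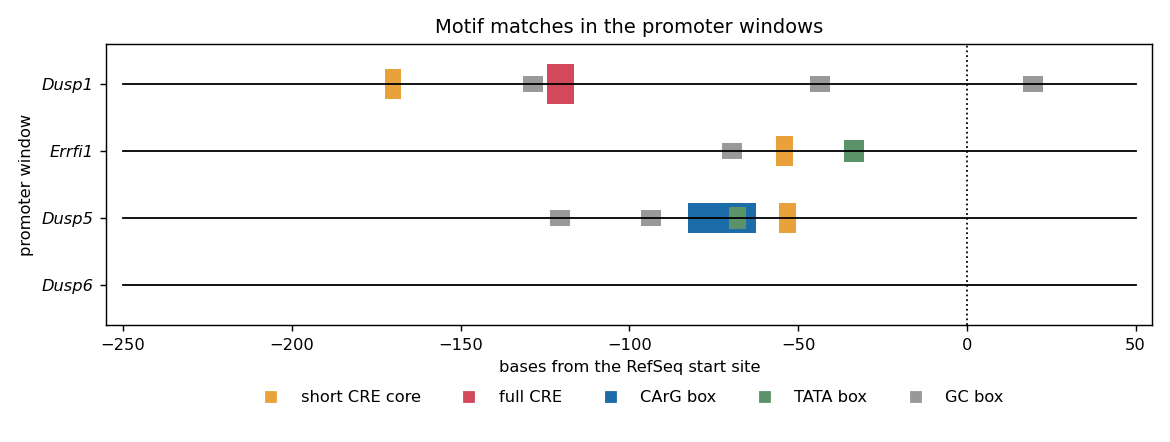
Motif matches in the 4 promoter windows, from 250 bases before to 50 bases after the RefSeq start site (x axis, bases), with 1 row per gene. Colours stand for the kind of motif, and matches on either strand are drawn. The Dusp5 mark labelled TATA box is a match on the - strand. Dusp1 carries the full CRE, Dusp5 the 2 adjoining CArG boxes, and the Dusp6 row is empty.

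Levels are intensities after every array had been scaled to a 75th percentile of 107, and values under a floor of 13.4 were set to the floor before log2 was taken. Log2 changes and fold changes are on that floored scale. Of the 9 probe sets, 7 had a mean of at least 31.9 over the 10 arrays and were tested among 4439 probe sets. All 7 would have reached that mean without the 2 h arrays as well. The 2 others were a Dusp6 probe set (X94185cds_s_at, mean 17.5) and an Errfi1 probe set (M23572_at, mean 8.96), against 38.1 for the dimmest that passed, Dusp6 U42627_at. Differences were tested with limma, with 2 arrays per group, and a change was called at an adjusted p under 0.05. Deviations from the group means were positively correlated between same-numbered arrays for each pair of times. The correlation was weakest between 0 h and 2 h (r = 0.110). Limma was therefore also run with replicate number as a blocking term, and those values are given where they change a call or bear on one. In bulk RNA such as this, fewer cells of a type and less RNA per cell cannot be told apart.

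Of 8 Sertoli markers on the arrays 7 were bright enough to test, and Gata1 was not (13.7 to 51.6). Clu ranged from 6779 to 13782, Shbg from 582 to 911, Amh from 152 to 349 and the brighter of 2 Fshr probe sets from 56.6 to 195. The dimmer Fshr probe set lay between 1.48 and 14.5. The other tested markers were Inha, Gata4 and Wt1, and not all of them were steady. Inha ranged from 141 to 2939 on M36453_at and from 167 to 1793 on M32754cds_s_at. Gata4 ranged from 61.7 to 450 on L22761_at and from 54.97 to 250 on rc_AI234969_s_at. Wt1 ranged from 13.2 to 61.8 on rc_AA965119_at, from 117 to 342 on S63358_s_at and from 60.99 to 159 on X69716_at. Of the summed markers of other cell types, only those of germ cells separated the replicate numbers without overlap. The summed level of 11 germ cell markers lay between 2220 and 2622 on replicate 2 arrays, against 244 to 925 on those of replicate 1, with Tnp2 and Odf1 at or below the floor throughout. The brightest were Ldhc (58.5 to 1649), Hspa2 (48.5 to 578) and Sycp3 (21.8 to 295). In replicate 1 the sum was 925 at 0 h and 244 at 24 h, and in replicate 2 it was 2233 and 2395. The 6 peritubular myoid markers summed to 204 to 688 on 9 of the arrays and to 2033 on 24 h replicate 1. Of the markers of Leydig cells, macrophages and endothelial cells, 1 of 3, 1 of 5 and 0 of 3 were bright enough to test, and their sums reached at most 113, 175 and 106. The 3'/5' ratio of the beta-actin controls, a sign of RNA quality, lay between 1.48 and 1.76 on the replicate 2 arrays, against 0.928 to 1.17 on those of replicate 1. The part of these differences in the results below was not tested.

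After 2 h of FSH, 2 of 3 Dusp1 probe sets and 1 of 2 tested Errfi1 probe sets were called higher than at 0 h, 10.5-fold to 12.7-fold, and no probe set of Dusp5 or Dusp6 was called. These 3 calls among 7 tested probe sets stand against 0.631% of all 4439 probe sets called higher in that comparison (28) and 0.0451% called lower (2). With the block 4 of the 7 were called higher, against 1.15% of all. The genes were chosen with earlier results of these data known, so these counts are a description and not an independent test. The median log2 change was 3.26 over the 7 probe sets and -0.02 over all probe sets tested. On all 7 both 2 h arrays lay above both control arrays, as they did for 11.9% of all probe sets. Probe sets of 1 gene are read from the same RNA on the same arrays and are not replicates.

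**Figure D2:**
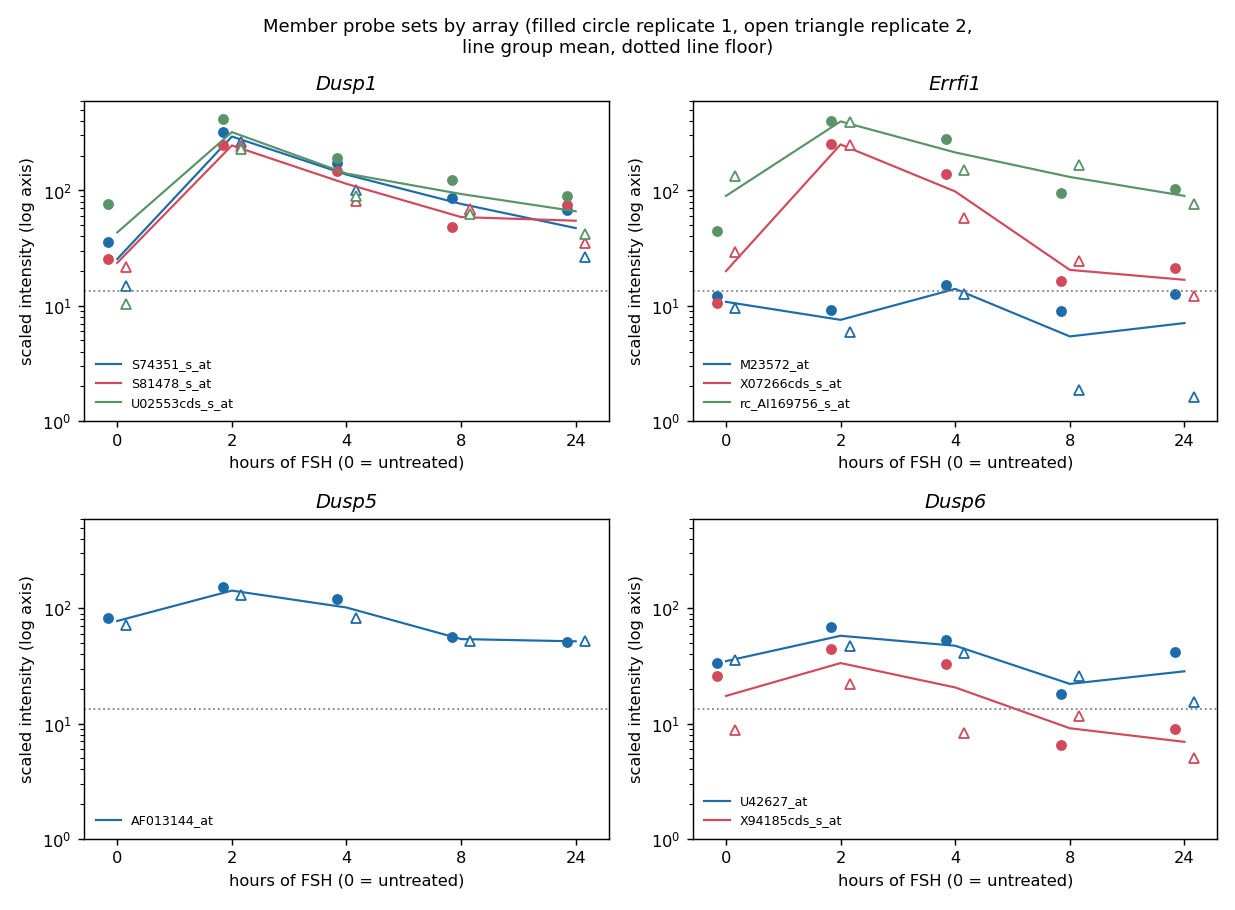
Scaled intensity (log axis) of the 9 probe sets on each array against hours of FSH, with 1 panel per gene and 1 colour per probe set. Filled circles are replicate 1, open triangles replicate 2, lines group means and the dotted line the floor of 13.4. The highest group mean is at 2 h for every probe set except Errfi1 M23572_at, which stays near or under the floor. Dusp5 and Dusp6 U42627_at move over a narrower range than Dusp1 and the 2 other Errfi1 probe sets. Dusp6 X94185cds_s_at is at or under the floor on 6 of the 10 arrays.

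Dusp1, the phosphatase with the broadest choice of MAP kinases here, was measured by 3 probe sets. S81478_s_at had intensities of 25.3 and 21.8 at 0 h, 250.2 and 241 at 2 h, 148 and 80.5 at 4 h, 48.0 and 69.6 at 8 h, and 74.6 and 34.7 at 24 h (replicates 1 and 2). The 2 h arrays were the highest, and every treated array lay above both controls. Its mean was 246 ± 6.19 at 2 h and 23.6 ± 2.47 at 0 h (SD, n = 2 each), a log2 change of 3.39 ± 0.46 (SE, adjusted p = 0.0130) or 10.5-fold.

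S74351_s_at had 36.0 and 14.8 at 0 h, 323 and 265 at 2 h, 174 and 101 at 4 h, 85.4 and 67.5 at 8 h, and 67.8 and 26.5 at 24 h. Its groups overlapped with the control only at 24 h, where replicate 2 lay below control replicate 1. The log2 change at 2 h of 3.66 ± 0.56 (SE), or 12.7-fold, was called (adjusted p = 0.0184).

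The third Dusp1 probe set, U02553cds_s_at, had 76.2 and 10.4 at 0 h, 415 and 228 at 2 h, 191 and 89.2 at 4 h, 124 and 62.8 at 8 h, and 89.8 and 42.1 at 24 h. Replicate 1 was above replicate 2 at every time, and control replicate 2 was at the floor. Its log2 change at 2 h was 3.26 ± 0.80 (SE), which was not called (adjusted p = 0.219) unless replicate number was blocked for (adjusted p = 0.00231). Within replicate 1 the log2 difference was 2.44 and within replicate 2 it was 4.08. By size of log2 change at 2 h, the 3 Dusp1 probe sets ranked 9, 14 and 15 from the highest of 4439.

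At later times Dusp1 stayed above control in the means, by smaller amounts. At 4 h the log2 changes against 0 h were 2.52, 2.21 and 2.03, none of them called by limma (adjusted p = 0.0908, 0.0686 and 0.505 for S74351_s_at, S81478_s_at and U02553cds_s_at), where 0.856% of all probe sets were called higher and 0% lower. With the replicate block all 3 were called at 4 h (adjusted p = 0.00528, 0.0191 and 0.0268), where that fit called 2.64% of all probe sets higher. Both 4 h arrays lay above both controls on all 3, and on 6 of the 7 tested probe sets of the 4 genes, against 15% of all. At 8 h the changes were 1.72, 1.30 and 1.46. With the block S74351_s_at was called at 8 h (adjusted p = 0.0348, against 2.3% of all probe sets), and without it none was, against 0.743% of all called higher and 0.0225% lower. The 8 h arrays of S74351_s_at and S81478_s_at lay above both controls, as 17.7% of all probe sets did. At 24 h they were 0.88, 1.11 and 0.94, with 95% intervals of -0.38 to 2.14, 0.08 to 2.14 and -0.86 to 2.74, and neither fit called any. Without the block limma called 0% of all probe sets at 24 h (204 at an unadjusted p under 0.05). S81478_s_at alone of the 7 had both 24 h arrays above both controls, as 15.9% of all did.

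Errfi1, the EGF receptor inhibitor, had 1 probe set called. X07266cds_s_at had intensities of 10.5 and 29.5 at 0 h, 255 and 247 at 2 h, 138 and 57.8 at 4 h, 16.3 and 24.6 at 8 h, and 21.4 and 12.2 at 24 h. The 2 h and 4 h arrays lay above both controls, and the 8 h and 24 h arrays overlapped with them. The log2 change at 2 h was 3.66 ± 0.56 (SE, adjusted p = 0.0184). That was 12.6-fold, with control replicate 1 at the floor. At 4 h the log2 change of 2.17 was not called (adjusted p = 0.171, and 0.0807 with the block).

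The other tested Errfi1 probe set, rc_AI169756_s_at, had 44.6 and 135 at 0 h, 401 and 393 at 2 h, 279 and 149 at 4 h, 95.2 and 167 at 8 h, and 103 and 76.2 at 24 h. Both 2 h arrays lay above every other array, while the 2 controls were far apart. Its log2 change at 2 h, 2.36 ± 0.55 (SE), was not called (adjusted p = 0.190, and 0.0813 with the block). Within replicate 1 the difference was 3.17 and within replicate 2 it was 1.54. The third Errfi1 probe set, M23572_at, was at the floor on 9 of 10 arrays and reached 15.3 on 4 h replicate 1, so that it gives no change in either direction. Both tested Errfi1 probe sets thus had higher values at 2 h, with overlapping 95% intervals (2.39 to 4.92 for X07266cds_s_at and 1.11 to 3.60 for rc_AI169756_s_at), and 1 of them was called. Which transcripts or which part of them each one measures was not analysed here.

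Dusp5, the nuclear ERK phosphatase, had 83.1 and 72.1 at 0 h, 154 and 131 at 2 h, 121 and 82.0 at 4 h, 56.1 and 52.0 at 8 h, and 51.2 and 52.2 at 24 h. Both 2 h arrays lay above both controls, and all 8 h and 24 h arrays lay below them. Of all probe sets, 17.2% had both 8 h arrays below both controls, Dusp5 and Dusp6 U42627_at among them, and 13.4% had both 24 h arrays below, Dusp5 among them. None of these differences was called. The log2 change at 2 h was 0.87 ± 0.32 (SE, adjusted p = 0.789), with a 95% interval of 0.15 to 1.60. At 8 h it was -0.52 (-1.24 to 0.20) and at 24 h -0.58 (-1.30 to 0.14). A change of the size seen for Dusp1 at 2 h thus lies outside the interval for Dusp5.

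Dusp6, the cytoplasmic ERK phosphatase, had 1 tested probe set. U42627_at had 33.8 and 35.8 at 0 h, 68.2 and 47.3 at 2 h, 53.4 and 41.2 at 4 h, 18.1 and 26.1 at 8 h, and 41.4 and 15.4 at 24 h. The 2 h and 4 h arrays lay above both controls, the 8 h arrays below them, and the 24 h arrays on either side. The log2 changes against 0 h were 0.71, 0.43, -0.68 and -0.46 at 2, 4, 8 and 24 h, with none called and a 95% interval of -0.52 to 1.93 at 2 h. X94185cds_s_at had 25.9 and 8.87 at 0 h, 44.7 and 22.3 at 2 h, 32.9 and 8.25 at 4 h, 6.56 and 11.6 at 8 h, and 8.89 and 4.98 at 24 h. It was at the floor on 6 of 10 arrays, and its 2 h arrays overlapped with the controls.

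**Figure D3:**
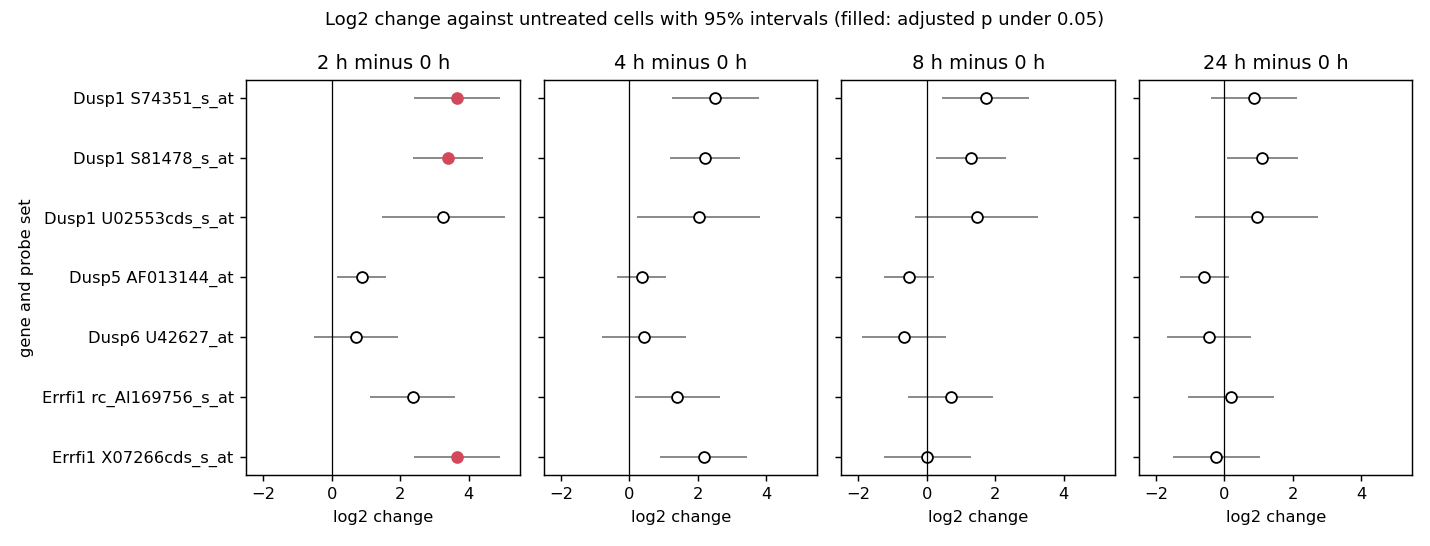
Log2 change against untreated 0 h cells (x axis) of the 7 tested probe sets at each time, with limma's 95% intervals as bars and filled points for adjusted p under 0.05. The 3 filled points, all at 2 h, are Dusp1 S74351_s_at (3.66), Dusp1 S81478_s_at (3.39) and Errfi1 X07266cds_s_at (3.66).

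The calls at 2 h rested on few arrays. Of the 3, 1 was called without control replicate 1 and 0 without control replicate 2 or without either 2 h array, although every one kept its direction in all 10 fits that left out an array. With no filter on dim probe sets, which adjusts over all 8740, 0 of 9 were called, and the smallest adjusted p among them was 0.0905.

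The 7 tested probe sets had the order of their 2 highest times in common. Each had its highest group mean at 2 h and its second highest at 4 h, an order that 4.28% of all tested probe sets had, and X94185cds_s_at of Dusp6 had it too. Of the 2 h log2 change, the Dusp1 probe sets kept 62.2% to 68.8% at 4 h, 38.3% to 46.9% at 8 h and 23.9% to 32.9% at 24 h. The Errfi1 probe sets kept 59.1% and 59.3% at 4 h. At 8 h rc_AI169756_s_at kept 29.7% and X07266cds_s_at 0.299%. The Dusp1 probe sets had their lowest mean at 0 h, while Dusp5 and Dusp6 had means below control at 8 h and 24 h. Whether these genes differ in how fast they decline was not tested.

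None of the steps between successive times was called for any of the 7. Between 4 h and 2 h, the log2 differences were -1.49 for Errfi1 X07266cds_s_at, -1.14 to -1.23 for Dusp1 and -0.28 for Dusp6. Both 4 h arrays lay below both 2 h arrays on 6 of the 7, against 12.1% of all probe sets, with 0% of all probe sets called in either direction (160 at an unadjusted p under 0.05 by limma). Between 8 h and 4 h, X07266cds_s_at had -2.16 (adjusted p = 0.898), Dusp6 -1.11 and Dusp5 -0.88, again with 0% called (152 at an unadjusted p under 0.05). Both 8 h arrays lay below both 4 h arrays on 5 of the 7, against 15.2% of all. Between 24 h and 8 h the values lay between -0.84 and 0.22, with 0.225% of all called lower. Neighbouring times therefore had an order in their means that the test did not separate.

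Over the longer step the decline was called for 1 Errfi1 probe set. X07266cds_s_at had a mean of 16.8 ± 6.54 at 24 h and 251 ± 5.94 at 2 h (SD, n = 2 each) and fell by 3.89 ± 0.56 log2 units (SE, adjusted p = 0.0249), with 24 h replicate 2 at the floor. It was the only one of the 7 called lower at 24 h than at 2 h, against 0.293% of all probe sets called lower and 0.0225% called higher. With the replicate block the 3 Dusp1 probe sets were called lower too (adjusted p = 0.00478, 0.0374 and 0.0292 for S74351_s_at, S81478_s_at and U02553cds_s_at), against 0.743% of all. Their log2 differences were -2.79, -2.27 and -2.32. The other tested Errfi1 probe set, rc_AI169756_s_at, had -2.16 and was called in neither fit (adjusted p = 0.304, and 0.118 with the block). Dusp5 had -1.46 (adjusted p = 0.163, and 0.0572 with the block) and Dusp6 -1.17 (adjusted p = 1, and 0.611 with the block). All 7 probe sets had both 24 h arrays below both 2 h arrays, as did 13.1% of all. The call of X07266cds_s_at was lost without either 2 h array, without either 24 h array and with no intensity filter (adjusted p = 0.0924 to 0.277).

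For a change at any time, limma's F test called Dusp1 S81478_s_at (adjusted p = 0.0449) and Errfi1 X07266cds_s_at (0.0257), where 0.991% of all probe sets were called. With the block it called both of these and the 2 other Dusp1 probe sets, against 3.22% of all. Leaving out 1 array at a time gave between 0 and 3 calls in this test. Dusp5 had an adjusted p of 0.217, or 0.0714 with the block.

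Dusp1 also differed between the replicate numbers. Averaged over the times, replicate 2 was lower than replicate 1 by a log2 difference of -1.31 on U02553cds_s_at (adjusted p = 0.00978) and -0.81 on S74351_s_at (0.0392), and by -0.34 on S81478_s_at, which was not called (0.426). Of all probe sets, 8.65% were lower and 6.53% higher in replicate 2. The Errfi1 values were 0.21 and -0.05, Dusp5 had -0.22 and Dusp6 -0.34, none called. The summed germ cell markers and the actin ratio given above moved with the same numbers. So did the summed level of 8 Sertoli markers, of which Clu alone, at 6779 to 13782, made up most. That sum lay between 8739 and 12450 on replicate 2 arrays, against 11958 to 16610 on those of replicate 1. It was lower in replicate 2 at all 5 times, and the markers other than Clu were not summed apart. The part of the germ cell markers, the actin ratio and the Sertoli sum in the Dusp1 difference was not tested.

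The rest of the pathway was described with a list of 113 ligands, receptors, adaptors, kinases, other brakes and transcription targets. The listed genes were chosen with earlier results of these data known, so their counts of calls are a description and not an independent test. Of these genes 62 had probe sets with a single symbol, 126 in all, and 73 probe sets of 37 genes were bright enough to test. At 2 h, 3 of the 73 were called higher than at 0 h and 0 lower, against 0.631% of all probe sets called higher. The median log2 change was 0.04 over the 73 and -0.02 over all. All 3 were transcription targets. Against 0 h, none of the 73 was called at 4, 8 or 24 h without the block. With the block 5 were called higher at 2 h (1.15% of all), 4 at 4 h (2.64% of all), 2 at 8 h (2.3% of all) and 0 at 24 h. The 3 calls dropped to 1 without control replicate 1, to 0 without control replicate 2 or either 2 h array, and to 1 with no intensity filter.

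Few probe sets of the EGF family passed the intensity filter. None of the 14 probe sets of 6 ligand genes was bright enough to test. Egfr itself, the receptor that Errfi1 restrains, ranged from 8.91 to 31.5 over the 10 arrays. Erbb3, a partner receptor with little kinase activity of its own, was the only receptor tested and had a log2 change of -0.23 at 2 h. Adaptors and Ras genes (9 probe sets) and the MAP kinase cascade (30) had 0 called in each comparison, with medians of 0.10 and -0.02 at 2 h. Mapkapk2, a kinase activated by p38, had 726 and 369 at 4 h and 1103 and 449 at 8 h, against 109 and 107 at 0 h. It was called with the replicate block only, at 4 h (log2 change 2.26, adjusted p = 0.00620) and at 8 h (2.70, adjusted p = 0.00199). At 24 h it had 264 and 124, against 1103 and 449 at 8 h, and was called lower with the block only (-1.96, adjusted p = 0.0263).

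Among the other brakes 10 probe sets were tested and 0 called, with a median of -0.02 at 2 h. The phosphatase relatives Dusp4 and Dusp7 were under the intensity filter, with ranges of 3.93 to 12.9 and 20.6 to 39.0. These genes are named here after their values were seen. Ppp2cb, a catalytic subunit of protein phosphatase 2A, had 1209 and 865 at 8 h, against 386 and 272 at 0 h, and was called with the block only (log2 change 1.66, adjusted p = 0.00658).

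Of the transcription targets, 23 probe sets of 11 genes were tested, with a median log2 change of 0.13 at 2 h. At that time 3 were called higher, against 0.631% of all, or 5 with the block, against 1.15% of all. Junb, an AP-1 subunit, had 927 and 1006 at 2 h on rc_AA891041_at, against 185 and 84.2 at 0 h, a log2 change of 2.95 ± 0.39 (SE, adjusted p = 0.0130). Its other probe set, X54686cds_at, had 935 and 896 at 2 h, against 175 and 202 at 0 h (2.28, adjusted p = 0.0124). Both Junb probe sets were called lower at 24 h than at 2 h, with log2 differences of -2.83 and -3.01 (adjusted p = 0.0205 and 0.00557). At 4 h rc_AA891041_at had 491 and 430 and was called higher than at 0 h with the block only (1.88, adjusted p = 0.0732, and 0.0139 with the block). Fos, the AP-1 partner of Jun proteins, had 265 and 228 at 2 h on X06769cds_at, against 49.3 and 35.0 at 0 h (2.56, adjusted p = 0.0228), and 2 further Fos probe sets were called with the block only (adjusted p = 0.00147 for X03347cds_g_at and 0.0101 for X06769cds_g_at). At 4 h X06769cds_at (1.27) and X03347cds_g_at (1.58) were called with the block only (adjusted p = 0.0485 and 0.0243). At 24 h against 2 h the 3 Fos probe sets X06769cds_at, X03347cds_g_at and X06769cds_g_at had log2 differences of -2.40, -2.63 and -2.00. They were called lower with the block only (adjusted p = 0.00312, 0.00290 and 0.00545), so that with the 2 of Junb 5 probe sets of the list were, against 0.743% of all.

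**Figure D4:**
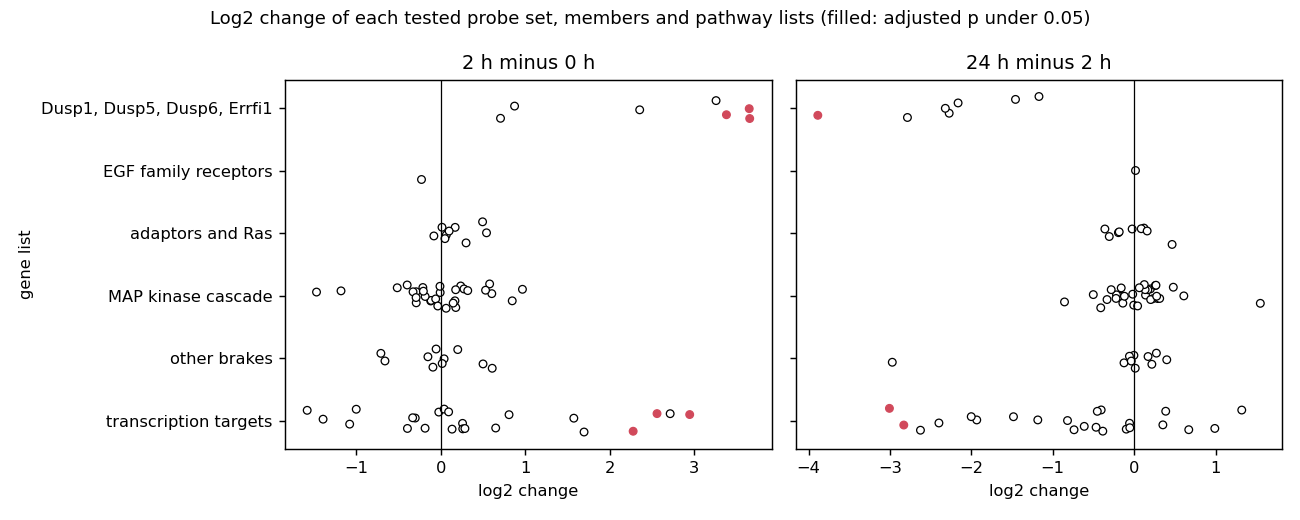
Log2 change of each tested probe set (points) of the 4 brake genes and of 5 pathway lists, at 2 h against 0 h on the left and at 24 h against 2 h on the right. Filled points have an adjusted p under 0.05. At 2 h the filled points are 2 of Dusp1, 1 of Errfi1, 2 of Junb and 1 of Fos, and the kinases, adaptors and other brakes have none. The vertical spread within a row has no meaning.

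The genes most alike in pattern were found by the root mean square (RMS) difference between log2 values over the 10 arrays. Each probe set was first centred on its own mean. Differences between replicates therefore count in this measure as well as differences between times. The brightest probe set stood for each gene. For Dusp1 (U02553cds_s_at) the nearest other named genes were Fos (RMS difference 0.589), Cebpb (0.629) and Junb (0.656), against a median of 1.37 over all tested probe sets. The other Dusp1 probe sets lay at 0.409 and 0.655. Cebpb, a leucine zipper factor, had a mean of 488 at 2 h and 53.5 at 0 h, a log2 change of 3.26 (adjusted p = 0.0184).

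For Errfi1 (rc_AI169756_s_at) the nearest named genes were Zfp36l1, which promotes decay of AU-rich mRNAs (0.460), the chromatin protein gene Bend3 (0.529) and Junb (0.537), with a median of 1.09. Dusp1 S81478_s_at stood at 0.569, position 7 in order of nearness, closer than the other Errfi1 probe set at 0.757. Zfp36l1 and Bend3 had log2 changes of 1.69 and 1.53 at 2 h, neither called.

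For Dusp5 the nearest were Hes1, a transcriptional repressor in Notch signalling (0.231), Cyp51, an enzyme of cholesterol synthesis (0.306), and Dnajb1, a heat shock co-chaperone (0.322), with a median of 0.725. Hes1 had a mean of 297 at 2 h and 143 at 0 h, a log2 change of 1.06 that was not called (adjusted p = 0.581). For Dusp6 (U42627_at) they were the early response gene Ier3 (0.324), the complement protease gene C1r (0.334) and Sdcbp, which encodes the scaffold protein syntenin (0.355), with a median of 0.772. Dusp5 and Dusp6 lay 0.387 apart, position 24 in the order of nearness to Dusp5 and position 10 in the order to Dusp6. Small differences are easier to reach for genes that vary little, so these distances are not comparable between the 4 genes.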

How the data were processed

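Total RNA of 10 Sertoli cell samples was measured on Affymetrix rat arrays. The values deposited by the authors are intensities on a linear scale. How they were summarised from the probes is not given in the sources used here. With 2% of values trimmed from either end, array means were nearly equal (124.57 to 124.98).

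Each array was multiplied by 0.887 to 1.10 to a common 75th percentile of 107, floored at that percentile divided by 8, and put on the log2 scale. Controls (59 probe sets) were left out, and 4439 of 8740 probe sets with a mean of at least the pooled median of 31.9 were tested. The test was limma 3.58.1 under R 4.3.3 (1 mean per group, eBayes with intensity trend, 5 residual degrees of freedom), with Benjamini-Hochberg adjustment over all 4439 within each comparison. Precision is limited by the number of arrays. The fitting code was tested on simulated data.

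The 2 h array without a number was taken as replicate 1, since its partner is labelled replicate 2. For each pair of times, the deviations of same-numbered arrays from their group means were correlated. All 10 correlations were over 0.1 (0.110 to 0.698), as were the 6 that leave out the 2 h arrays (0.205 to 0.608). The labels do not say what a number shares, so the pairing comes from this check. The blocked fit had 4 residual degrees of freedom.

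The platform annotation gave a single gene symbol to 7006 probe sets, more than 1 to 308, and no symbol to 1426. Promoter windows are RefSeq's (GRCr8). The array files name no genome build. The text names every probe set of the 4 genes, list genes called in either fit, and the 3 genes nearest each in pattern. Members and lists were chosen with earlier results of these data known. Alternatives were the scaling, floor, filter, variance model, replicate block and leaving out each array.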

Additional observations from a re-analysis of the deposited data

How the results depend on the processing

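The log2 changes of the 3 probe sets called at 2 h kept their direction under every alternative that tested them. Leaving out 1 array gave 0 to 3 calls at 2 h, 0 at 4, 8 and 24 h against 0 h, 0 to 1 at 24 h against 2 h and 0 to 3 in the F test, and a group left with 1 array was assumed to vary like the others. The replicate block gave 4 calls at 2 h, 3 at 4 h, 1 at 8 h, 4 at 24 h against 2 h and 4 in the F test, and it changed no other call among the 7 probe sets. With no intensity filter there were 0 calls at 2 h, 0 at 24 h against 2 h and 0 in the F test, since p-values were then adjusted over 8740 probe sets. The filter at the 75th percentile kept 3 of the 9 probe sets, with 1 call at 2 h, 0 at 24 h against 2 h and 0 in the F test. The F test gave 1 call with quantile normalization and 1 without the intensity trend. Dividing the 75th percentile by 4 rather than 8 for the floor gave 2 calls at 24 h against 2 h. Signals near the floor limit Dusp6, Errfi1 M23572_at, and Errfi1 X07266cds_s_at in the controls and at 24 h. They also limit the fold changes of Dusp1. The lower control was at 14.8 on S74351_s_at, 21.8 on S81478_s_at and 10.4 on U02553cds_s_at, against a floor of 13.4.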
